A study of Mus musculus with 6 samples.

Results

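The genes described here are 9 genes that make, load, take up or accompany the transmitters of amacrine cells in the mouse retina: Gad1, Gad2, Slc32a1, Slc6a9, Chat, Slc18a3, Slc5a7, Th and Calb2. They were chosen by name. A poly(A) site was counted for a gene when its 3′ edge fell inside the gene or no more than 1000 bases past its end, on the same strand of the mm10 genome with GENCODE M21 gene models. Of the 9 genes, 8 had a site, and they held 11 sites of the 32688 in the table, in which 14400 nuclear genes had at least 1 site. Slc5a7, the high-affinity choline transporter of cholinergic neurons, had none, and the nearest site on its strand lay 407005 bases away.

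Amacrine cells are the inhibitory interneurons of the inner retina. Most release either GABA, which glutamate decarboxylase makes from glutamate, or glycine, and both are packed into vesicles by the same transporter. Starburst amacrine cells release acetylcholine beside GABA and serve direction selectivity, and a sparse class makes dopamine, a signal of light adaptation. Amacrine cells are born before and around birth in the mouse and form their synapses after it.

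The libraries were made by PA-seq, a strand-specific method that primes on poly(A) tails and counts tags at the 3′ ends of RNA. They came from retinas of C57BL/6J mice, with no other genotype or treatment in the labels, at embryonic days E13.5, E15.5 and E18.5 and postnatal days P0, P6 and P21. There was 1 sample per stage, and the labels do not say how many animals each pooled, so no value has a replicate. The table gave 2 count columns per stage, whose meaning is not given in the sources used here. They were added, and their separate values are given as a description. Intervals are 95% intervals that cover counting error only.

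The libraries held 3286158 tags (P0) to 4656153 tags (E18.5), of which 95.5% to 97.5% lay in nuclear genes or just downstream. All 5 photoreceptor markers and 13 of 14 amacrine markers had a site, and none of the 4 skeletal muscle markers did. The summed level of 5 lens markers was 586 CPM (tag counts scaled to library size with TMM factors) at E13.5, then 1443 at E15.5, 229 at E18.5, then 1461 at P0, 76.2 at P6 and finally 383 at P21, so E15.5 and P0 stood apart. The part of these differences in the results was not tested, and the counts of rising and falling members and list genes are also given without both libraries. In a bulk tissue, fewer cells of a type and less RNA per cell cannot be told apart.

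The sequences just upstream of the cleavage sites are shown for the ends that carry most tags of the GABA, glycine, acetylcholine and dopamine genes, with a little-used Slc32a1 end for contrast. Each is the last 30 bases up to the site in the annotated transcript (GENCODE M21, GRCm38), with AATAAA, the commonest poly(A) signal, in capitals where it occurs, at the copy nearest the site. The Gad1 end lies at chr2:70601983-70602012 (+), the Gad2 end in the 3′ UTR at chr2:22693844-22693873 (+), and the main and upstream Slc32a1 ends at chr2:158615717-158615746 and chr2:158615646-158615675 (+). The Slc6a9 main end lies at chr4:117869273-117869302 (+), the Slc18a3 end at chr14:32462438-32462467 (−) and the Th end at chr7:142892777-142892806 (−).
Gad1: atataaataaAATAAAaaatattctccatg
Gad2, 3′ UTR end: tctaaacccaAATAAAtgtgtaaatgtaga
Slc32a1, main end: tatatccgcaAATAAAgaagaaacaaaggc
Slc32a1, upstream end: tcgtggtgaataagatgaaatgtatatcag
Slc6a9, main end: aggttttaatgaaatttctattcctgtctc
Slc18a3: ctgaattAATAAAccatatctgtctgagga
Th: tattatctcAATAAAggaaggaaaggtctc

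Gad1 holds another copy of AATAAA that overlaps the marked one on its upstream side. Between the marked AATAAA and the site lay 14 bases in Gad1, in the Gad2 3′ UTR end and in the main Slc32a1 end. AATAAA was searched for on the transcript strand in the 40 bases before a site, together with the variant ATTAAA and the rarer variants AGTAAA or TATAAA. Of the 9 member sites with such sequence, 6 held AATAAA, and 56.8% of all 23075 sites with annotated sequence did. Neither Slc6a9 site nor the upstream Slc32a1 site held any of the 4, which 80.4% of all sites did. The upstream Slc32a1 site, 71 bases before the main one, was followed by A-rich transcript sequence and took 3.56% of the gene's tags. A match or its absence describes these letters only. The 3′ edges of the Chat site and of the intronic Gad2 site lay outside annotated exons, and the sequence there was not read.

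Gad2 was the member with a second strongly used site. The 3′ edge of this site, at chr2:22625029-22625075 (+), lay 44 bases past the end of exon 4 of 16. It fell in an intron of 4359 bases, 68798 bases upstream of the 3′ UTR end. The span of the site begins inside exon 4, which ends at chr2:22625031. Priming on A-rich RNA within the intron could not be checked, since the intron was not read. A transcript that ended there would hold 520 of the 1755 coding bases of Gad2-201. The last 30 bases of that exon, at chr2:22625002-22625031 (+), are shown because they hold ATTAAA, a common variant of the signal, in capitals.
Gad2, end of exon 4: aaacaactctaaaatatgcaATTAAAacag

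Between this ATTAAA and the 3′ edge of the site lay 48 bases, more than the 40-base search spans. The span of the site itself begins shortly after the ATTAAA. In a window of 54 bases, 19.9% of 23071 sites held ATTAAA.

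Most of the transmitter genes gained tags as the retina matured. Of the 8 measured genes, 6 rose along stage order (Gad1, Slc32a1, Slc6a9, Chat, Slc18a3 and Calb2), none fell, and Gad2 and Th did not pass the test. Among all 14395 genes tested, 17.0% rose and 13.1% fell, which makes 30.1% in either direction. The median fitted log2 change, taken from E13.5 to P21 across the 5 steps, was 3.33 for the 8 genes and −0.02 for all genes tested. The test was edgeR's quasi-likelihood F test of a straight line over 6 libraries, with Benjamini-Hochberg adjusted p over all genes and a threshold of 0.05. At an unadjusted p under 0.05 the members counted 6 rising and 0 falling, and DESeq2 called 0 falling members too (15.4% of all genes). With E15.5 and P0 left out, 5 rose, since Slc18a3 no longer passed (log2 change 3.21, adjusted p = 0.0703), and without P21 only Gad1, Slc32a1 and Slc6a9 did.

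**Figure D1:**
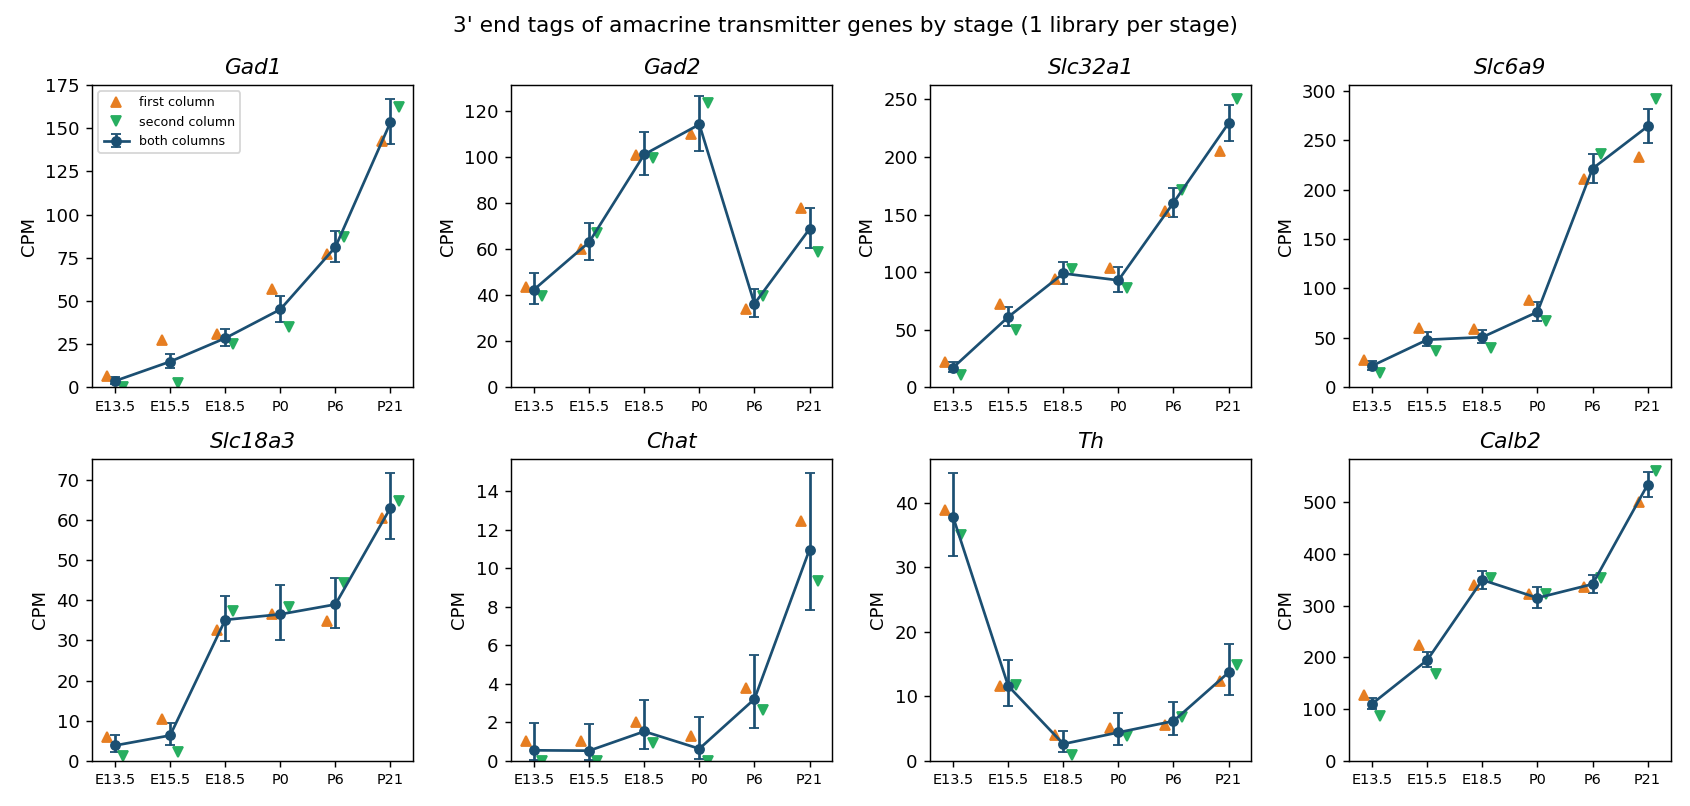
TMM-scaled CPM (y axis, linear, from 0) of the 8 measured genes at the 6 stages (x axis), with circles for both columns added, bars for 95% Poisson intervals and triangles for each column. Gad1 reaches 153 CPM at P21, Gad2, with both its sites added, is highest at P0 with 114 CPM, and Th is highest at E13.5 with 37.8 CPM.

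Among the enzymes that make GABA, Gad1 rose and Gad2 followed another course. Gad1 (chr2:70553072-70602014, +), the decarboxylase spread through the whole neuron, had 3.56 CPM at E13.5, 14.8 CPM at E15.5, 28.4 CPM at E18.5, 45.0 CPM at P0, 81.1 CPM at P6 and 153 CPM at P21. Each stage was higher than the one before it. The fitted log2 change was 4.74 ± 0.41 (SE; edgeR adjusted p = 0.00232), and the P21 library held 43.1 times the E13.5 level (25.0 to 81.5). The early libraries' Gad1 tags came mostly from the first columns, with 13 tags in the first and 0 in the second at E13.5, and 52 and 4 at E15.5, while P6 had 164 and 165. The columns' disagreement was not tested, and the log2 change was 3.65 in the first columns alone and 6.78 in the second, past the threshold in both.

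Gad2 (chr2:22622205-22693874, +), the decarboxylase concentrated at synaptic terminals, had 42.4 CPM at E13.5, 63.1 CPM at E15.5, 101 CPM at E18.5, 114 CPM at P0, 36.3 CPM at P6 and 68.8 CPM at P21. With both its sites added, as here, Gad2 was highest around birth. P6 and E13.5 were the lowest, with overlapping intervals (30.6 to 42.6 and 36.0 to 49.7 CPM). The added sites were far lower at P6 than at P0 in both columns, with 33.8 and 39.6 CPM at P6 and 110 and 124 at P0. The 3′ UTR end alone had 33.4 CPM at E13.5, 38.8 CPM at E15.5, 61.1 CPM at E18.5, 64.5 CPM at P0, 26.1 CPM at P6 and 64.4 CPM at P21. At that end P21 was thus level with P0. The straight line did not pass the test (log2 change 0.23 ± 0.73, adjusted p = 0.835), and its sign turned to −0.45 without E13.5. Adding the square of stage order, a test chosen after the data were seen, did not bring Gad2 past the threshold either (adjusted p = 0.293).

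The 2 Gad2 ends did not keep a fixed ratio. The intronic site had 33 tags at E13.5, then 92 tags at E15.5, 184 tags at E18.5, then 158 tags at P0, 41 tags at P6 and finally 16 tags at P21. The 3′ UTR end had 122, 147, 280, 205, 106 and 235 tags at the same stages. The intronic site was thus most used from E15.5 to P0 and least at P21, where its 16 tags split 14 and 2 between the columns. The share of Gad2 tags at the 3′ UTR end was 78.7% (71.6 to 84.4) at E13.5, then 61.5% (55.2 to 67.4) at E15.5, 60.3% (55.8 to 64.7) at E18.5, then 56.5% (51.3 to 61.5) at P0, 72.1% (64.4 to 78.7) at P6 and finally 93.6% (89.9 to 96.0) at P21. The Wilson interval at P21 lay above those of all other stages, and the interval at P0 lay below those of E13.5, P6 and P21.

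As a trend along stage order the shift between the Gad2 ends was not called. The log2 change of the 3′ UTR end over the intronic site was 1.54 (edgeR diffSpliceDGE, adjusted p = 0.776), and without P21 it was −0.77. Gad2 was the only member with a pair of sites that could be tested, 0 members passed at an unadjusted p under 0.05, and 2.21% of the 6071 genes tested were called. Spearman's coefficient of the share with stage order was 0.20 (exact two-sided permutation test over 720 orders, adjusted p = 0.963), and Pearson's r was 0.39 (exact permutation, adjusted p = 0.850).

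**Figure D2:**
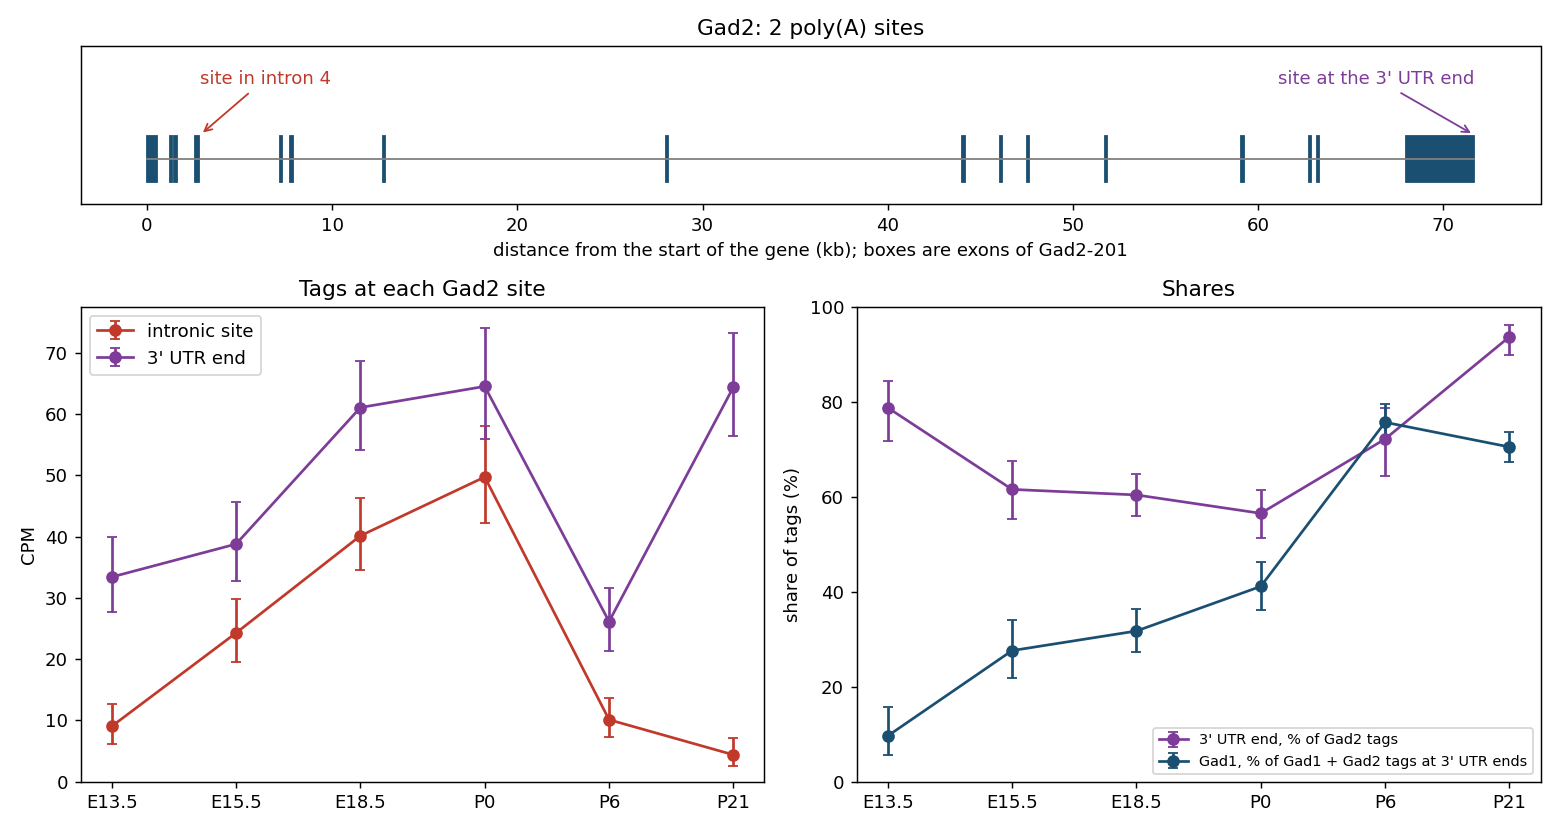
Top, exons of Gad2-201 (boxes) by distance from the start of the gene in kb, with the 2 poly(A) sites; bottom left, CPM at each Gad2 site by stage with 95% Poisson intervals; bottom right, the share of Gad2 tags at the 3′ UTR end and the share of Gad1 among Gad1 and Gad2 tags at 3′ UTR ends, in percent with 95% Wilson intervals. The 3′ UTR share of Gad2 is lowest at P0 with 56.5% and highest at P21 with 93.6%, and the Gad1 share is 70.4% at P21, against 9.63% at E13.5.

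At the 3′ UTR ends alone, Gad1 tags were the minority before birth and the majority from P6 on. Gad1 made up 9.63% (5.71 to 15.8) of Gad1 and Gad2 tags at 3′ UTR ends at E13.5, then 27.6% (21.9 to 34.1) at E15.5, 31.7% (27.4 to 36.4) at E18.5, then 41.1% (36.0 to 46.3) at P0, 75.6% (71.4 to 79.4) at P6 and finally 70.4% (67.2 to 73.5) at P21. The largest gap between neighbours was that between P6 and P0. At E15.5 the columns disagreed, with 42.3% (33.9 to 51.1) in the first and 5.0% (1.96 to 12.2) in the second, so the interval of the sum understates the error, and in the first columns alone E18.5, at 34.2%, was below E15.5. Tags mark 3′ ends and do not grow with transcript length, but how well each end is captured was not measured. Spearman's coefficient with stage order was 0.94 (exact two-sided permutation p = 0.0167, 0.10 after adjustment over 6 shares, which does not pass). Pearson's r was 0.95 (exact permutation p = 0.00833, adjusted 0.050, at the threshold), and 0.91 without E13.5 and P21, with 0.00278 the smallest p that 720 orders can give.

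The vesicular transporter and the glycine transporter rose with Gad1. Slc32a1 (chr2:158610767-158615748, +), which loads GABA and glycine into vesicles, had 17.0 CPM at E13.5, 61.0 CPM at E15.5, 98.8 CPM at E18.5, 92.9 CPM at P0, 160 CPM at P6 and 229 CPM at P21. It was lowest at E13.5 and level between E18.5 and P0. Its log2 change was 3.04 ± 0.49 (adjusted p = 0.00629), and 1.81 without E13.5, still past the threshold.

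Slc6a9 (chr4:117834506-117875198, +), the glycine transporter that marks glycinergic amacrine cells and is also made by glia elsewhere in the nervous system, had 21.6 CPM at E13.5, 48.0 CPM at E15.5, 50.6 CPM at E18.5, 76.2 CPM at P0, 221 CPM at P6 and 264 CPM at P21. The last 2 stages stood well above the first 4. Its log2 change was 3.62 ± 0.37 (adjusted p = 0.00260). Its upstream 3′ UTR site, 580 bases before the main one, took 4.58% of the tags. Slc6a9 made up 56.0% of Slc6a9 and Slc32a1 tags at E13.5, then 44.1% at E15.5, 33.9% at E18.5, then 45.1% at P0, 58.0% at P6 and finally 53.5% at P21, so its share was lowest at E18.5. A trend of that share with stage order did not pass (Spearman's coefficient 0.26, exact permutation, adjusted p = 0.963).

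Of the cholinergic genes, the vesicular transporter had more tags than the enzyme at every stage. Slc18a3 (chr14:32462438-32464850, −), which loads acetylcholine into vesicles, had 3.83 CPM at E13.5, 6.33 CPM at E15.5, 35.1 CPM at E18.5, 36.5 CPM at P0, 39.0 CPM at P6 and 63.0 CPM at P21. E13.5 and E15.5 were low and the later 4 stages were not, and at E13.5 the Poisson interval began at 2.10 CPM. Slc18a3 lies within an intron of Chat on the same strand, so its site falls in both genes, and it was given to Slc18a3, at whose annotated end it lies. The log2 change was 3.65 ± 0.83 (adjusted p = 0.0169). It was 2.87 in the first columns alone and 4.48 in the second, which held 12 and 2 tags at E13.5, 20 and 4 at E15.5 and 81 and 80 at E18.5. It did not pass without E13.5 (2.28, adjusted p = 0.0860), without E15.5 (3.24, 0.0516), without P21 (3.51, 0.0571) or against days after conception (2.61, 0.109).

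Chat (chr14:32408203-32465989, −), which makes acetylcholine, was near the limit of detection until P6. Its site, at chr14:32407410-32407424, lay 793 bases past the annotated end and held 2 tags at E13.5, then 2 tags at E15.5, 7 tags at E18.5, then 2 tags at P0, 13 tags at P6 and finally 40 tags at P21. These are 0.548, 0.528, 1.53, 0.629, 3.21 and 11.0 CPM, where 3 tags correspond to 0.654 to 0.944 CPM. Only P6 and P21 stood clear of that floor beyond their Poisson intervals, which began at 1.71 and 7.83 CPM, and at E18.5 the interval ran from 0.614 to 3.15 CPM. The log2 change of 4.52 ± 0.91 passed (adjusted p = 0.0119), but without P21 it was 2.43 and did not (adjusted p = 0.156). The second columns held no Chat tag at E13.5, E15.5 or P0, and the change was 3.78 in the first columns alone and 7.14 in the second, past the threshold in both. Chat took 12.5% of Chat and Slc18a3 tags at E13.5 (3.50 to 36.0), then 7.69% at E15.5 (2.14 to 24.1), 4.17% at E18.5 (2.03 to 8.35), then 1.69% at P0 (0.466 to 5.97), 7.60% at P6 (4.50 to 12.6) and finally 14.8% at P21 (11.1 to 19.5). The Chat share at P21 was above that at E18.5 and P0 beyond the intervals, and the shares at E13.5, E15.5 and P0 rest on 2 Chat tags each. No trend along stage order was found (Spearman's coefficient 0.03, exact permutation, adjusted p = 1).

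Th, the dopamine gene, was highest in the youngest library. Th (chr7:142892752-142931128, −) encodes tyrosine hydroxylase, the rate-limiting enzyme of dopamine synthesis, and had 37.8 CPM at E13.5, 11.6 CPM at E15.5, 2.62 CPM at E18.5, 4.41 CPM at P0, 6.17 CPM at P6 and 13.7 CPM at P21. The lowest value, at E18.5, rests on 12 tags, 10 and 2 in the columns, and its interval (1.35 to 4.57 CPM) overlaps that of P0 (2.41 to 7.39 CPM). At E13.5 the columns held 77 and 61 tags, so the early level stood in both. The straight line did not pass (log2 change −1.52 ± 0.998, adjusted p = 0.277) and was 0.43 without E13.5. Stage order and its square together, added after the data were seen, passed for Th (adjusted p = 0.00858) and for 7 of the 8 members, and for 30.9% of all genes.

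Calb2 (chr8:110137502-110168210, −) encodes calretinin, a calcium-binding protein of many amacrine and ganglion cells. It had 110 CPM at E13.5, 195 CPM at E15.5, 349 CPM at E18.5, 315 CPM at P0, 341 CPM at P6 and 533 CPM at P21. The 3 middle stages E18.5, P0 and P6 formed a plateau. All tags lay at the end of Calb2-201, 5036 bases before the end of Calb2-202. The log2 change was 1.90 ± 0.36 (adjusted p = 0.00944), and 1.56 without P21, where it did not pass (adjusted p = 0.0597). Without E13.5 it was 1.14 and passed (adjusted p = 0.0481).

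Differences between neighbouring stages were spread over the series, and genes of the same transmitter stepped at different times. With 1 library per stage there is no test, and a step was counted when the level differed at least 2-fold with 20 or more tags in the larger library. Over the 5 steps 7 were higher and 3 lower at the later stage, and over the 3 steps that remain without E15.5 and P0 the counts were 11 and 2. Shares of all genes, here and below, count by the same 2-fold rule. Among all genes, single steps of the 5 held 2.15% to 10.1% higher and 2.47% to 7.54% lower. Those of the 3 held 9.23% to 10.1% higher and 4.12% to 10.8% lower. The few lower steps are not read as a trait of the members. The first step held 3 of the transmitter genes. Of all genes, 5.74% were at least 2-fold higher there. E15.5 was 4.15-fold higher than E13.5 for Gad1 (2.24 to 8.27), 3.59-fold for Slc32a1 (2.70 to 4.83) and 2.22-fold for Slc6a9 (1.70 to 2.93). These ratios rest on the E15.5 library. With that library skipped, E18.5 was 7.97-fold higher than E13.5 for Gad1 (4.50 to 15.4), 5.82-fold for Slc32a1 (4.46 to 7.72) and 2.34-fold for Slc6a9 (1.80 to 3.06). Of all genes, 9.75% were at least 2-fold higher at E18.5 than at E13.5. Th was 3.25-fold lower at E15.5 than at E13.5 (2.30 to 4.68), with 3.05% of genes lower.

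At E18.5, Slc18a3 was 5.55-fold higher than at E15.5 (3.60 to 8.91), where 5.36% of genes were higher, and Th was 4.44-fold lower (2.30 to 9.23), where 2.47% were lower. The columns differed here, at 3.11-fold in the first and 17.3-fold in the second for Slc18a3, and 2.87-fold and 12.7-fold lower for Th. From E13.5, past the E15.5 library, E18.5 was 9.16-fold higher for Slc18a3 (5.30 to 17.1) and 14.4-fold lower for Th (8.0 to 28.6). Of all genes, 4.12% were at least 2-fold lower at E18.5 than at E13.5. No member with 20 or more tags in the larger library differed 2-fold at P0 from E18.5, a step at which 2.15% of genes were higher and 5.55% lower. The step across the first week set the GABA enzyme Gad2 apart from the glycine transporter. At P6 Slc6a9 was 2.91-fold higher than at P0 (2.52 to 3.36), with 10.1% of genes higher, while Gad2 was 3.15-fold lower (2.60 to 3.84), with 7.54% of genes lower. Set against E18.5 in place of P0, P6 was 4.38-fold higher for Slc6a9 (3.78 to 5.08), with 9.23% of genes higher, and 2.79-fold lower for Gad2 (2.31 to 3.38), with 10.8% lower. At P21 Chat was 3.42-fold higher than at P6 (1.79 to 6.97) and Th 2.22-fold higher (1.35 to 3.75), where 10.1% of genes were higher and 4.66% lower.

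**Figure D3:**
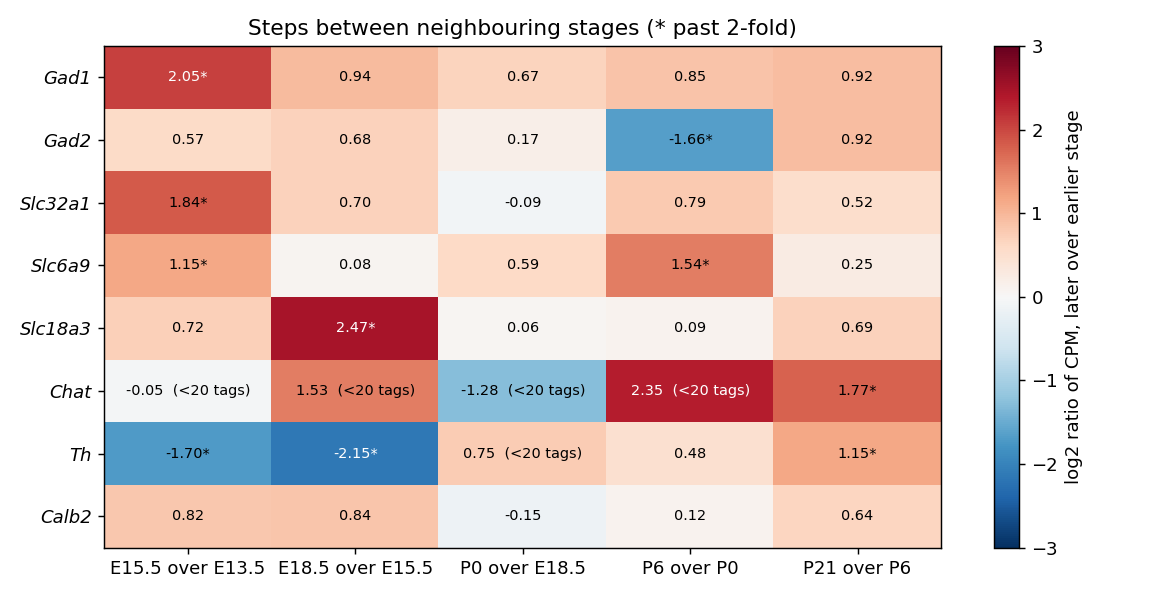
Log2 ratio of TMM-scaled CPM of each gene (rows) at the later over the earlier of neighbouring stages (columns); stars mark steps of at least 2-fold with 20 or more tags in the larger library, and steps with fewer tags are marked. The largest starred steps are those of Slc18a3 at E18.5 over E15.5 (2.47) and of Th at the same step (−2.15), and Gad2 is the only gene starred as lower after birth (−1.66).

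Between the ends of the series, 6 members were at least 2-fold higher at P21 than at E13.5, against 23.3% of all genes, and Th was 2.76-fold lower (1.98 to 3.89), against 17.9%. The ratios were 43.1 for Gad1, 20.02 for Chat (5.19 to 171), 16.4 for Slc18a3 (9.60 to 30.6), 13.5 for Slc32a1 (10.4 to 17.8), 12.2 for Slc6a9 (9.70 to 15.6), 4.83 for Calb2 (4.34 to 5.39) and 1.62 for Gad2 (1.32 to 1.99). The intervals of Slc18a3, Slc32a1 and Slc6a9 overlap, that of Gad1 (25.0 to 81.5) overlaps those of Slc18a3 and Chat, and that of Chat reaches from Calb2 to Gad1. The order is thus not resolved among these. By counting error alone, Gad1 lay above Slc32a1 and Slc6a9, these and Slc18a3 lay above Calb2, and Calb2 lay above Gad2. The columns spread wider than these intervals. In the first and second columns the ratios were 9.48 and 22.99 for Slc32a1, 8.56 and 20.38 for Slc6a9, and 3.95 and 6.42 for Calb2. Gad1 had 21.79 in the first and 0 tags at E13.5 in the second, so its place above Slc32a1 and Slc6a9 is not settled. Calb2 stayed below Slc32a1, Slc6a9 and Slc18a3 and above Gad2 in both columns. Across the 12 columns, which share libraries and depth by pairs, the 6 rising genes correlated with each other at r of 0.69 to 0.97 on log2 CPM. Gad2 correlated with them at −0.14 to 0.39 and Th at −0.60 to 0.01. The 6 genes were grouped by passing the rising test on these same counts, so this contrast follows from the grouping and adds no support.

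Genes of the same transmitter systems showed where the rest of each pathway stood. Of 14 genes that take up or break down GABA and glycine, 4 rose, 3 fell and 7 did not pass, with a median log2 change of −0.05. The shares over all genes were 17.0% rising and 13.1% falling, so these small counts do not set the list apart. Without E15.5 and P0 together 1 rose and 2 fell. The GABA transporter gene Slc6a11 rose (log2 change 2.62 ± 0.37), with 227 CPM at P21, against 31.2 at E13.5, while Slc6a13, another GABA transporter gene, did not pass (0.59 ± 0.62). Slc6a5, the neuronal glycine transporter, rose too (5.09 ± 1.35), but it had 0 tags at E13.5, so the fitted value hangs on the prior count of the fit and sets no bound. Shmt1, an enzyme of serine and glycine interconversion, fell (−2.86 ± 0.90) to 6.85 CPM at P21, against 60.5 at E13.5. Without E13.5 the list had 1 rising gene, without E15.5 or without P21 it had 2, and falling genes numbered 1 without E13.5 or E18.5, 5 without P0 and 0 without E15.5, P6 or P21.

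On the receiving side, 5 of 7 measured genes of glycine receptors and the inhibitory postsynapse rose and none fell (median 2.23). Over all genes tested, 17.0% rose and 13.1% fell. The list had 2 rising genes without E13.5, 2 without P21 and 5 without E15.5 and P0 together. The receptor subunits Glra3 (log2 change 4.58 ± 0.90), Glrb (2.77 ± 0.46 on the log2 scale) and Glra2 (2.32 ± 0.42) rose. Glra3 had 1 tag at E13.5 and 55 at P21, so its change rests on few early tags. Glrb had 19.2 CPM at E13.5, 18.7 CPM at E15.5, 34.7 CPM at E18.5, 25.2 CPM at P0, 72.3 CPM at P6 and 126 CPM at P21, so its levels, like those of Slc6a9, were highest at the last 2 stages. Glra1 and Glra4 had no site. All 7 fitted changes were above 0, the lowest 0.05 on the log2 scale for Nlgn2.

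Acetylcholine genes moved in both directions. Of 14 measured genes for breakdown, choline supply and receptors, 5 rose and 3 fell (median 0.66), against 17.0% and 13.1% of all genes. Chrna6, a nicotinic receptor subunit (3.82 ± 0.55), Chrm1, a muscarinic receptor (4.98 ± 1.04), and Ache, acetylcholinesterase (2.98 ± 0.82), rose. Chrm1 had 1 tag at E13.5 and 40 at P21, and Ache had 3 and 31, so both changes rest on few early tags. Chrna3, another nicotinic subunit, fell, and each stage was lower than the one before it, with 200.4 CPM at E13.5, 138 CPM at E15.5, 93.4 CPM at E18.5, 58.5 CPM at P0, 40.4 CPM at P6 and 26.0 CPM at P21 (log2 change −2.95 ± 0.17, adjusted p = 0.00232). Rising genes numbered 2 without E13.5, 3 without E15.5 and 1 without P21, 1 gene fell without E15.5, and without E15.5 and P0 together 3 rose and 2 fell.

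In the catecholamine list, the 4 dopamine receptors with a site rose and no other gene did. Over all genes tested, 17.0% rose and 13.1% fell. Drd5 (5.72 ± 1.38, with 0 tags at E13.5 and E18.5), Drd4 (4.62 ± 1.21), Drd2 (4.53 ± 0.70) and Drd1 (3.04 ± 0.48) rose, 1 of 13 measured genes fell, and the median was −0.15. The gene that fell was Slc18a2, the vesicular monoamine transporter (−1.98 ± 0.46), with 14.5 CPM at P21, against 44.6 at E13.5. Drd4, which photoreceptors are known to express, had 40.1 CPM at E15.5 and 39.3 at P0, against 9.31 at E13.5 and 11.3 at E18.5, and 472 at P21. It was higher at E15.5 and P0 than at the embryonic stages beside them, as the lens markers were. Ddc, which completes dopamine synthesis after Th, had 7.94, 2.90, 3.93, 1.57, 1.73 and 4.39 CPM over the stages, highest at E13.5 as Th was, and did not pass (adjusted p = 0.343). The dopamine transporter Slc6a3 had no site. Without E13.5, 2 genes of the list rose and without P21 0, while 2 fell without E18.5 and 0 without E15.5, P6 or P21. Without E15.5 and P0 together 3 rose and 0 fell.

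Peptides and other genes of amacrine subtypes rose in 8 of 15 measured cases (median 2.31, with 4 rising without E13.5, without P6 or without P21, and 5 without E15.5 and P0 together). None fell by edgeR's test, 1 did at an unadjusted p under 0.05, and DESeq2 called 0. Over all genes, 17.0% rose and 13.1% fell by edgeR's test. Cartpt, a peptide precursor (4.27 ± 0.48), had 557 CPM at P21, against 16.4 at E13.5, and Gjd2, the neuronal connexin of electrical synapses (4.77 ± 0.65), had 95.7 CPM at P21, against 1.37 at E13.5. Slc17a8, the vesicular glutamate transporter of a class of amacrine cells (3.86 ± 0.88), was at 71.0 CPM at P21, against 9.12 at P6. Vip (5.51 ± 1.63) had 0 tags at E13.5 and E18.5. Sst, the somatostatin gene, was highest at E13.5 like Th, with 148 CPM at E13.5, 40.1 CPM at E15.5, 6.76 CPM at E18.5, 7.87 CPM at P0, 25.9 CPM at P6 and 24.9 CPM at P21, and did not pass (adjusted p = 0.121). The medians stay as given when Slc6a5, Drd5 and Vip are set to their ratio over 3 tags.

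**Figure D4:**
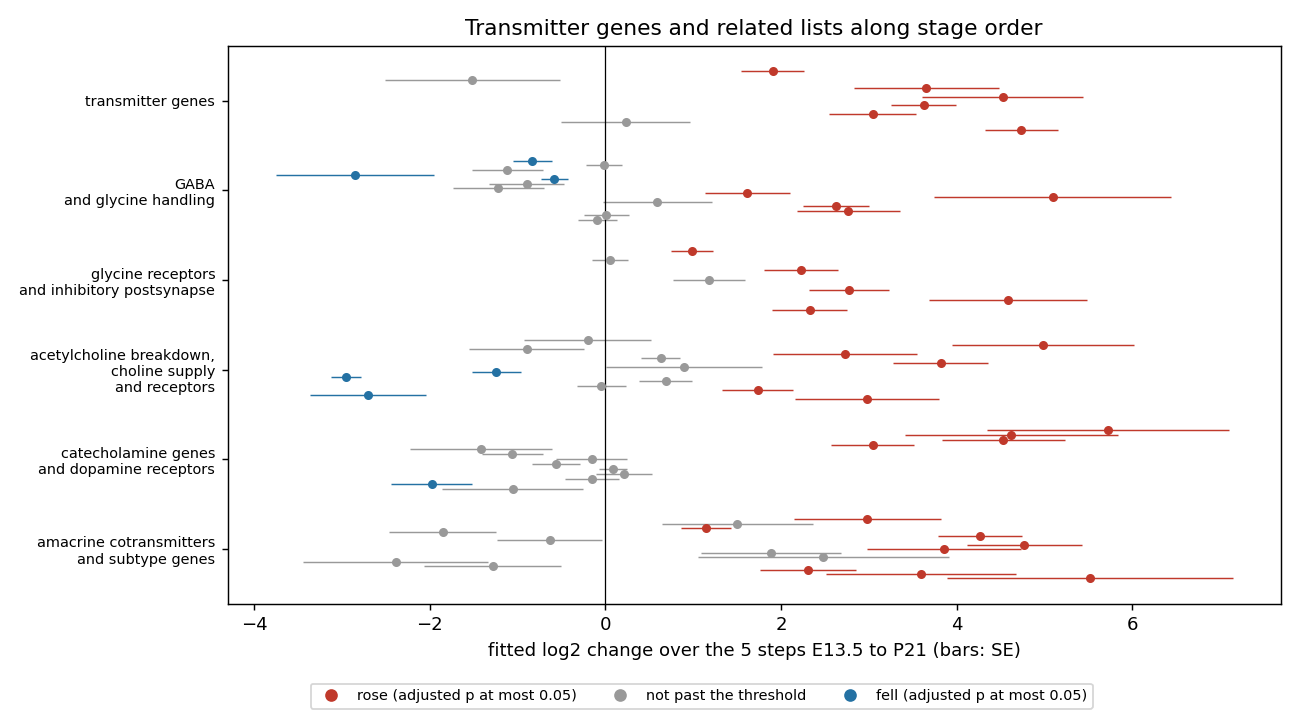
Fitted log2 change over the 5 steps (x axis, bars are SE) of the 8 measured transmitter genes (top row) and of the genes of 5 related lists (rows below); red rose, blue fell and grey did not pass the adjusted p of 0.05. Of the transmitter genes 6 lie to the right in red, and the acetylcholine row has 5 red and 3 blue points.

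Of 13 measured general amacrine markers, 2 rose, and both were members (Gad1 and Slc6a9), 1 fell (Ebf3, a transcription factor, −1.95 ± 0.27) and 10 did not pass. These counts are near the shares over all genes, 17.0% rising and 13.1% falling. Tfap2b, an amacrine transcription factor, had 30.7 CPM at E13.5, 85.0 CPM at E15.5, 176 CPM at E18.5, 159 CPM at P0, 167 CPM at P6 and 149 CPM at P21 (adjusted p = 0.0898), so that its level was flat from E18.5 on while Gad1 and Slc6a9 went on to higher values. The summed amacrine markers ran from 681 CPM at E15.5 to 1222 at E18.5. Without Gad1 and Slc6a9 the sum was 690 CPM at E13.5, then 618 at E15.5, 1143 at E18.5, then 863 at P0, 762 at P6 and finally 670 at P21, so the other markers together were highest at E18.5 and lower at each later stage. Pax6 was a large part of that sum, with 348 CPM at E18.5, 180 at P0 and 167 at P21. Most single markers were also highest at E18.5, but they did not all run as the sum did. Tfap2a was highest at P0, at 168 CPM, and Meis2 had 124 CPM at P0 and 145 at P6. Horizontal cells and ganglion cells can also make GABA or calretinin: of 4 horizontal cell markers 2 rose and 1 fell, with summed levels of 151 to 419 CPM over the stages. Of 8 ganglion cell markers 1 rose and 2 fell, with sums of 978 to 1528 CPM. Of 3 Mueller glia markers 1 rose (Rlbp1, the retinaldehyde-binding protein of these glia, 3.98 on the log2 scale), with sums of 556 CPM at E13.5 to 1649 CPM at P21. Of the photoreceptor markers 5 of 5 rose, with sums of 670 to 5232 CPM, and of 4 bipolar cell markers 2 rose, with sums of 476 to 1017 CPM. Their part in the members' changes was not tested.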

How the data were processed

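PA-seq counted 3′ ends in retinas of C57BL/6J mice at 6 stages, each with 1 sample. The deposited table holds, per the file headers, counts of tags per poly(A) site in 12 columns and an enrichment score per site, which entered no test. The submitters' processing notes name BWA 0.7.5a-r405 and mm10. The clustering and filtering of sites are not given in the sources used here, and no site had under 41 tags in all, so ends used less are not seen. Both columns of a stage were added.

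Sites were placed on GENCODE M21 by their 3′ edge, and tags were summed per gene. Tags in no nuclear gene were left out. CPM used TMM library sizes. Abundance was tested in edgeR 4.0.16 (R 4.3.3) by a quasi-likelihood F test of stage order 1 to 6, with 4 residual degrees of freedom, on genes that reached a CPM of 1 in 2 or more libraries. SE was the change divided by the square root of F. The p values measure the spread of single libraries around a line. Site choice used diffSpliceDGE on pairs of sites that each held 5% or more of a gene's tags, with a mean of 20 tags or more. DESeq2 1.42.0 was an alternative. On simulated counts for 14400 genes, 87.6% of log2 changes of 2 and 100% of changes of 3 were recovered, as were 91.5% of site changes of 3 over 6071 genes. These changes were straight lines with a fixed dispersion, and those in abundance were set only in genes with a mean of 20 tags or more. Chat, with 66 tags in all libraries together, lies below that. The recovery thus need not hold for members with few tags or a wider spread. Shares have Wilson intervals and CPM values Poisson intervals, at 95%.

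Named were all members, up to 4 genes of each related list (those past the threshold by size of change, then by mean CPM), and for members with at least 60 tags the 2 genes most like them. Also described, chosen after their values were seen, are the upstream sites of Slc32a1 and Slc6a9, and Ddc, Slc18a2, Slc6a13, Sst, Pax6, Tfap2a, Tfap2b, Meis2 and Ebf3. Some named by this rule are not reported here, though list totals include them. The members and lists were chosen with earlier results of these data known.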

Additional observations from a re-analysis of the deposited data

How the results depend on the processing

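Gad1, Slc32a1 and Slc6a9 were past the threshold in all 16 fits, the reported one included, Calb2 in 15 of 16, Chat in 14 of 15 and Slc18a3 in 11 of 16, while Gad2 and Th passed in none. Counting no bases downstream of genes gave no Chat value. With each library left out in turn, members rising ranged from 3 to 6, all genes rising from 809 to 2648 and all genes falling from 486 to 2404, and leaving out E15.5 and P0 together, chosen after seeing the data, gave 1094 genes falling and 11 higher steps in place of 7. The Gad2 change turned to −0.10 against days after conception and ranged from −0.45 to 0.77 with libraries left out, and that of Th ranged from −2.79 to 0.43. The log2 change of the Gad2 3′ UTR end over the intronic site ranged from −0.77 to 2.82 with libraries left out and was 3.28 against days after conception, and Spearman's coefficient of its share with stage order ranged from −0.40 to 0.60. That coefficient for the Slc32a1 upstream share was 0.26 in the first columns and ranged from −0.60 to 0.20 with libraries left out, that of the Chat share from −0.70 to 0.30 and 0.82 in the second columns, and that of the Slc6a9 share from −0.10 to 0.80. Site choice was called for 134 genes, for 50 in the first columns alone and for 0 to 173 with libraries left out. DESeq2 called 5 falling genes of GABA and glycine handling and 2 of the catecholamine list, the second columns alone gave 0 falling of GABA and glycine handling, days after conception 2 rising of it, and no bases downstream 3 rising glycine receptor genes. The causes were not tested. No paired analysis was possible because each stage had 1 sample. With 6 libraries and few tags at Chat, Th and early Gad1, depth limits what a step can show.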

Other observations

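For each member the 2 genes with the most similar profile over the 12 columns were listed by Pearson correlation of log2 CPM, among genes with a mean of at least 10 CPM. These are descriptions, since columns of a stage share a library and any gene that rises steadily resembles another. Gad1 was closest to Vsnl1 (r 0.99), which encodes a neuronal calcium sensor, and Pcp4 (0.99), a calmodulin-binding protein. Slc32a1 was closest to Apba1 (0.99) and Grin1 (0.99), an NMDA receptor subunit that was also among the closest to Calb2 (0.98), with Kcnip3 (0.98). Slc6a9 was closest to Itfg2 (0.99) and Prickle1 (0.99), Chat to Prkce (0.98) and Cc2d2a (0.97), and Slc18a3 to Kcna5 (0.98) and Vezf1 (0.98). A correlation does not measure the size of a change. Vezf1 had 213 CPM at E13.5 and 265 at P21, against 3.83 and 63.0 for Slc18a3. Itfg2 had 67.1 and 189 CPM at these stages, against 21.6 and 264 for Slc6a9. Gad2, with both its sites added and a peak around birth, was closest to Tnnt2 (0.97) and to Rnf144b (0.93). Tnnt2 had 2.74 CPM at E13.5, 8.44 CPM at E15.5, 39.5 CPM at E18.5, 31.8 CPM at P0, 0.740 CPM at P6 and 8.50 CPM at P21. Th was closest to the chaperone gene Hsp90b1 (0.94) and to Sec31a (0.93), whose levels differed far less between stages than those of Th.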
